A study of Homo sapiens with 4 samples.

Results

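Chromosome 20 carried 2753 of the 66131 regions of acetylated histone H3 lysine 9 (H3K9ac) called in T98G cells, an established human glioblastoma cell line. All regions of that chromosome were taken from both lists, 1014 of 26828 with a control shRNA (shNT) and 1739 of 39303 with an shRNA against RBBP4 (shRBBP4). They were split into arms at 27.5 Mb, near the centromere on build hg19. Both groups were T98G cells at passage 4 that had received a lentiviral shRNA construct, and each is represented by 1 chromatin immunoprecipitation sequencing (ChIP-seq) library made with an H3K9ac antibody. The input libraries and RBBP4 itself were not analysed here. Read depth is unknown for both libraries.

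H3K9ac is placed by acetyltransferases of the GCN5 and PCAF family and removed by histone deacetylases, and it marks active promoters and the nucleosomes beside them. RBBP4 is a histone-binding subunit shared by deacetylase complexes such as Sin3 and NuRD, the chromatin assembly factor CAF-1 and Polycomb repressive complex PRC2. Chromosome 20 is a small, gene-rich chromosome that carries, among others, the kinase gene SRC, the topoisomerase gene TOP1, the Notch ligand gene JAG1, the cell cycle kinase gene AURKA, the replication clamp gene PCNA, the Polycomb-associated gene ASXL1 and the chromatin reader gene ZMYND8. RefSeq lists 537 protein-coding genes on it (assembly GRCh38.p14). No annotation of the lists' build was used, so regions are named by position alone, and none is tied to a gene.

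The chromosome was selected on its region counts and ranks: its number of regions in shRBBP4 relative to shNT was high in every 5-Mb bin, and its regions were frequent at the top of the shRBBP4 list. Its counts and ranks are therefore a description. Widths and overlaps come from the same regions and are also given without a test. There is 1 library per group, so nothing below could be checked against replicates. Intervals are at 95%, cover counting error only and treat regions as independent.

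shRBBP4 had more H3K9ac regions than shNT on both arms, and by nearly the same factor. On the p arm, 339 shNT and 576 shRBBP4 regions were called, a ratio of 1.70 (1.48 to 1.95). The q arm had 675 and 1163, a ratio of 1.72 (from 1.57 to 1.90). The whole chromosome had a ratio of 1.71 (1.59 to 1.85), against 1.46 on all other chromosomes together. Among the 23 chromosomes with regions in both lists it ranked 3rd by this ratio. Chromosomes 14 and 10 stood above it at 2.02 and 1.91, and chromosome 7 was at 1.10. Covered length went from 330 kb in shNT to 615 kb in shRBBP4, a ratio of 1.86, so the bases differed by a larger factor than the regions. Depth and the amount of acetylation cannot be told apart in these counts.

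Regions were dense relative to the number of genes. There were 1.89 shNT and 3.24 shRBBP4 regions per protein-coding gene, the second and the first of 23 chromosomes. The q arm was denser than the p arm in both libraries, with 20.6 against 13.2 regions per Mb in shNT and 35.5 against 22.4 in shRBBP4. These densities were taken over the stretch that regions of each arm reach.

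The split into arms fell in a stretch without regions in either library. The last p-arm region ran from 25990489 to 25991362 in shNT, and its shRBBP4 partner from 25990377 to 25991352, at score percentiles of 91.3 and 97.8. A score percentile is the position of a region in its own list, with 100 the strongest. The region before it was weak in both, at percentile 2.74 in shNT (25834866 to 25834988) and 23.8 in shRBBP4 (25990176 to 25990317). The first q-arm region ran from 30102279 to 30103636 in shNT, and its shRBBP4 partner from 30102300 to 30104042, at percentiles 94.4 and 98.1. The next was at percentile 74.2 in shNT (30134760 to 30135057) and 34.5 in shRBBP4 (30104276 to 30104528). Strong pairs of regions thus bounded the gap of 4.11 Mb on both sides. Whether reads could be placed within the gap was not examined.

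Chromosome 20 regions were more frequent among the strongest regions of both lists than in the whole lists, and more so in shRBBP4. They made up 3.78% of the shNT list and 6.10% of its 1000 strongest regions (61 regions, 4.70 to 7.77). In shRBBP4 they made up 4.42% of the list and 12.5% of the 1000 strongest (125 regions, 10.5 to 14.7). By number of regions in the top 1000, chromosome 20 ranked 7th of 23 chromosomes in shNT, where chromosome 1 had most (124). In shRBBP4 it ranked 1st, before chromosome 5 (104). The 10 strongest regions of the genome included 3 from this chromosome in shNT and 4 in shRBBP4, all on the q arm. Among the top 1000 the p arm gave 23 regions in shNT and 47 in shRBBP4, and the q arm 38 and 78. The p arm held 37.7% of the shNT and 37.6% of the shRBBP4 members in the top 1000, against 33.4% and 33.1% of all members, so the arms contributed in similar proportions.

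The share of chromosome 20 differed over the score range. In the strongest score decile, 1 of 10 groups of the list ordered by score, chromosome 20 gave 5.26% of shNT and 7.78% of shRBBP4 regions. Its share of the weakest decile was 4.44% and 4.00%. Between these ends its share moved between 2.17% and 5.19% in shNT and between 2.77% and 6.57% in shRBBP4, without a steady trend. Many regions share a score, with 451 distinct scores in shNT and 857 in shRBBP4 on this chromosome, so the deciles differ in size.

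**Figure D1:**
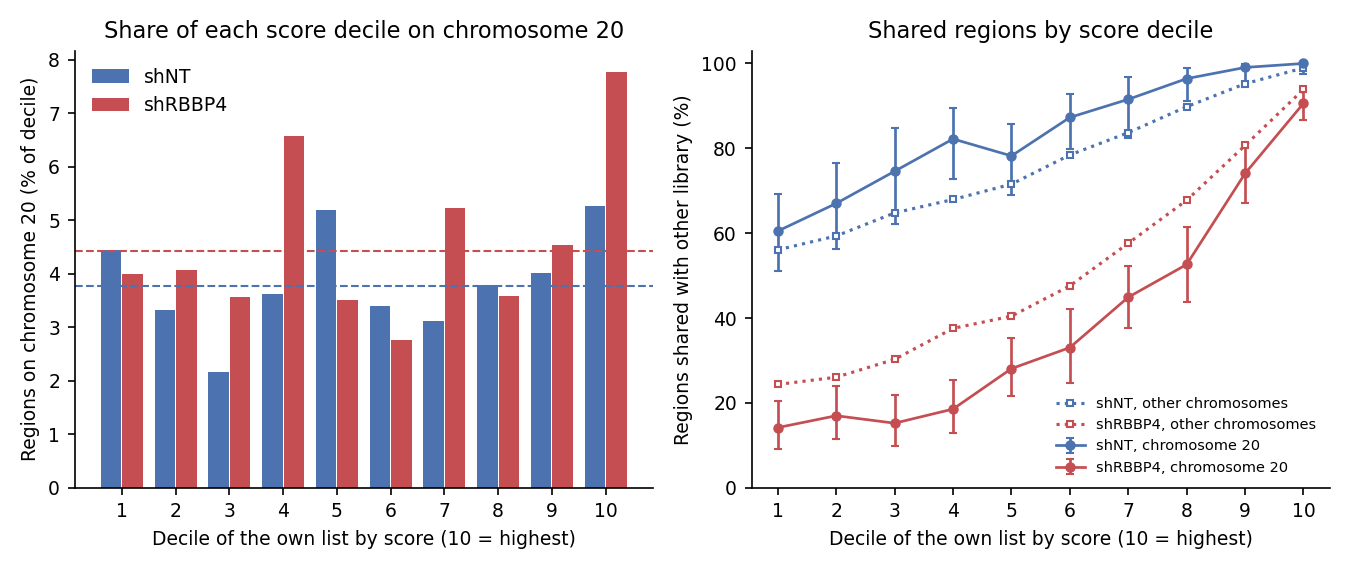
Left, regions on chromosome 20 as a percentage of each decile of the list by score, with dashed lines at the share of the whole list; right, percentage of regions that overlap one of the other library, by decile, with exact 95% intervals for chromosome 20. The strongest decile holds 5.26% in shNT and 7.78% in shRBBP4, and in all 10 deciles chromosome 20 lies above the other chromosomes for shNT and below them for shRBBP4.

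The 5 strongest regions of each library overlapped strong regions of the other, with widths between 175 and 1675 bp. The top shRBBP4 region of the genome, 183 bp from 34042669 to 34042851, matched a region of 189 bp that ranked 12th in shNT (34042660 to 34042848). The second shRBBP4 region, from 49573654 to 49575328, spanned 1675 bp and overlapped 4 shNT regions, which covered 85.6% of it. The best of those 4 ranked 3rd in shNT and spanned 193 bp (49575111 to 49575303). A single shRBBP4 region thus overlapped several of shNT. The opposite held from 30697343 to 30698157, an shNT region of 815 bp at rank 8. Its best shRBBP4 partner, at rank 7, spanned 175 bp (30697344 to 30697518), and a further shRBBP4 region lay in the same span.

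The other leading regions kept high ranks in both lists. An shNT region of 230 bp at rank 7 (42219290 to 42219519) had a partner of 221 bp at rank 30 in shRBBP4. One of 410 bp at rank 16 (44600630 to 44601039) had a partner of 430 bp at rank 21. In shRBBP4, the region of 913 bp at rank 8 (36156324 to 36157236) lay wholly inside an shNT region of 1451 bp at rank 34. The region of 1122 bp at rank 20 (34330565 to 34331686) overlapped 2 shNT regions, the better of them 668 bp wide and at rank 37.

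Most shNT regions of chromosome 20 had a counterpart, whereas most shRBBP4 regions had none that overlapped, when 1 shared bp counts and the full lists are used. Of the shNT regions, 857 of 1014 overlapped an shRBBP4 region by at least 1 bp (84.5%, 82.1 to 86.7), against 77.0% of the whole shNT list and 76.7% on the other chromosomes. Of the shRBBP4 regions, 757 of 1739 overlapped an shNT region (43.5%, 41.2 to 45.9), against 50.04% of the whole list and 50.3% on the others. Both majorities depended on these settings. When the overlap had to cover 50% of both regions, the shNT share was 43.4% and the shRBBP4 share 25.3%. With 1 shared bp, the shRBBP4 share was 54.2% in lists of equal length and 65.1% in the higher-scoring 50%. The arms were alike, at 83.8% (p) and 84.9% (q) in shNT and 45.7% and 42.5% in shRBBP4. A longer list in one library makes overlap likelier for the other, and chromosomes 14 and 10, with higher region ratios, showed a similar pair of shares (83.1% and 37.7%, 80.3% and 38.4%). Chromosome 7, with a ratio near 1, had 68.0% and 63.4%.

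Sharing depended on strength. All 142 shNT regions of the strongest decile overlapped an shRBBP4 region (97.4 to 100%), against 98.9% on the other chromosomes. In the weakest decile 60.5% did, against 56.1%. In shRBBP4 the share was 90.6% in the strongest decile, against 93.9% on the others, and 14.2% in the weakest, against 24.4%. The gap between chromosome 20 and the rest was therefore small among the strongest regions. Within deciles, the shNT share was above that of the other chromosomes in 10 of 10 deciles, by a mean of 7.10 percentage points. The shRBBP4 share was below it in 10 of 10, by a mean of 11.8 points. Shared shRBBP4 regions had a median percentile of 82.1 and a median width of 396 bp, against 67.9 and 300 bp on the other chromosomes.

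Regions without an overlap ranked low and often lay beside a region of the other library. Of the shRBBP4 regions, 439 did not overlap but had an shNT region within 1 kb (25.2%), close to the 24.2% of the whole list. A further 543 had none there (31.2%, 29.1 to 33.5), against 25.7% of the whole list. The 543 had a median percentile of 35.0 and a median width of 168 bp. Their median distance to the nearest shNT region was 16.2 kb, against 27.2 kb for the same class on the other chromosomes. Of the shNT regions, 40 had no shRBBP4 region within 1 kb (3.94%, 2.83 to 5.33), against 6.24% of the whole list, and 2 of these lay more than 100 kb from one.

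The strongest unmatched regions stood far higher in shRBBP4 than in shNT. The shRBBP4 list is the longer one, which by itself makes a neighbour within 1 kb likelier for shNT regions. In shRBBP4, 10 of the 298 regions in the strongest decile had no shNT region within 1 kb (3.36%), close to the 2.84% of that decile in the whole list. The q arm held 9 of the 10 and 194 of the 298. The first was at 42794972 to 42795234, at percentile 96.5 and 21.2 kb from the nearest shNT region. It was followed by 57585847 to 57586236 (percentile 96.1), 46021089 to 46021643 (96.0), 49982518 to 49982718 (95.2) and 56285477 to 56286371 (94.0). The second and the last of these lay only 2.85 and 1.27 kb from an shNT region, just outside the limit of 1 kb. In shNT none of 142 regions in the strongest decile was unmatched, and only 4 of 2699 were in the whole list. The strongest unmatched shNT region, at 49154846 to 49155050, stood at percentile 66.7. The next were at 49307731 to 49307916 (59.5), 4573121 to 4573285 (47.2), 62892537 to 62892831 (46.1) and 55605982 to 55606307 (44.0).

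Matched regions were wider in shRBBP4. The comparison used 492 pairs on chromosome 20 in which an shNT and an shRBBP4 region overlapped each other and no further region. Their median width was 237.5 bp in shNT and 350 bp in shRBBP4. The median log2 ratio of widths within pairs was 0.35 (quartiles -0.03 and 0.86), which is a 1.28-fold larger width. On the other chromosomes it was 0.15 (quartiles -0.20 and 0.69) over 12517 pairs. The shRBBP4 region was the wider one in 358 pairs (72.8%), against 61.3% of all pairs of the genome. It was at least 1.5 times wider in 195 pairs (39.6%), against 29.1% of all pairs, and at least 1.5 times narrower in 26 (5.28%), against 11.6%. The middle 50% of pairs overlapped widely between chromosomes, so the shift concerned the centre of a broad distribution.

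Chromosome 20 had the second highest median width ratio of 23 chromosomes, after chromosome 14 at 0.38. Chromosome 10 was at 0.33 and chromosome 7 at -0.05. The p arm was at 0.33 over 166 pairs and the q arm at 0.37 over 326. The narrowest regions of the lists measured 123 bp in shNT and 116 bp in shRBBP4, and 46 chromosome 20 pairs held an shNT region at that width. Without the pairs that held a region of the narrowest width, 440 remained, with a median of 0.32 against 0.14 on the other chromosomes.

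**Figure D2:**
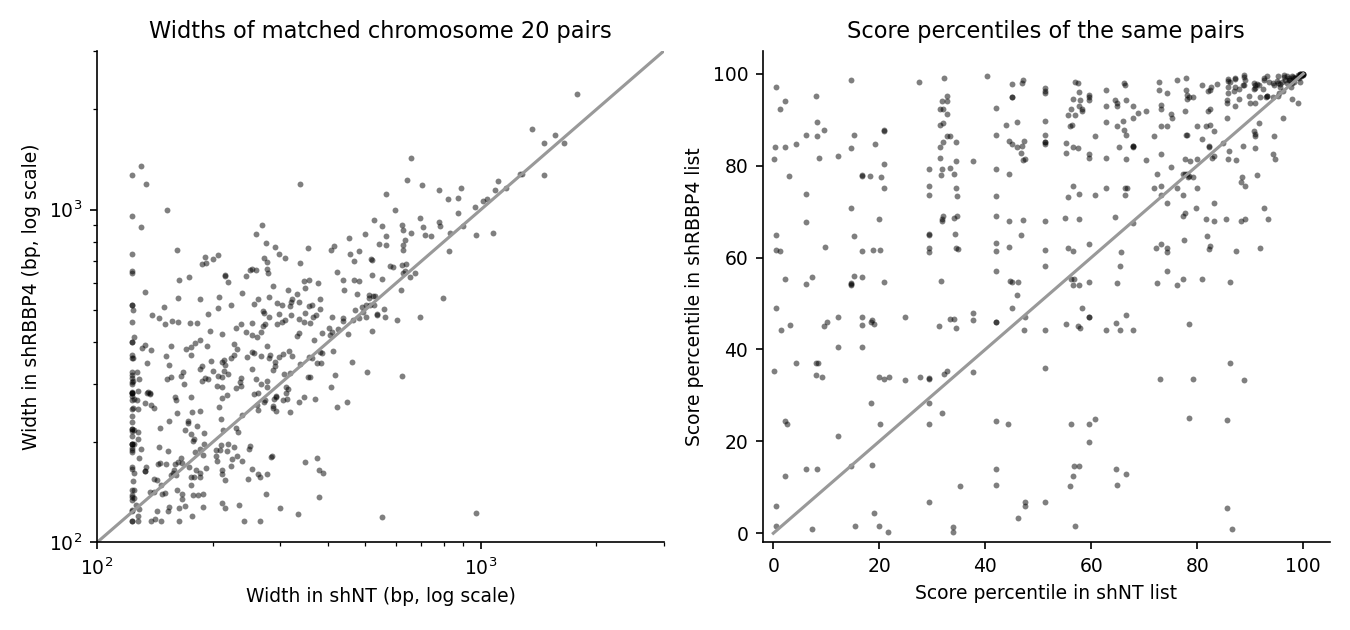
The 492 matched pairs of chromosome 20, 1 point per pair, by width in bp on log axes (left) and by score percentile in the own list (right), with a grey line where both libraries are equal. The shRBBP4 region is wider in 358 pairs and ranks higher in 361, and the shNT regions at the left edge have the narrowest width of 123 bp.

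On chromosome 20 the difference in width was found in each tercile of shNT width. In the narrowest tercile of pairs by shNT width, the median log2 ratio was 0.81 on chromosome 20 (141 pairs) and 0.49 on the others. It was 0.40 and 0.15 in the middle tercile and 0.14 and -0.04 in the widest tercile. Chromosome 20 was above the others in each tercile. The ratio fell from narrow to wide shNT regions on chromosome 20 and on the others alike. Since shNT width is the denominator of the ratio, grouping by it can produce such a fall by itself. The fall is therefore not read as a trait of narrow regions. The shRBBP4 region reached farther on both sides, by medians of 25.5 bp at the left and 18 bp at the right edge, against 10 and 8 bp elsewhere. The shRBBP4 region spanned the whole shNT region in 216 pairs (43.9%), against 30.8% of all pairs.

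**Figure D3:**
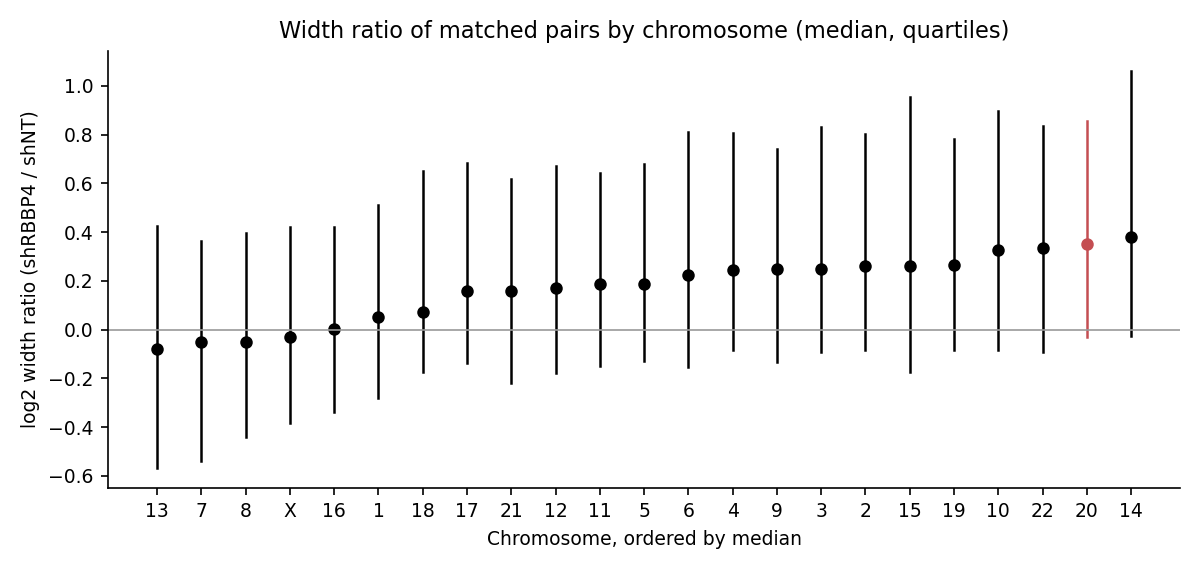
Median (point) and quartiles (line) of the log2 ratio of shRBBP4 to shNT width over matched pairs for each of 23 chromosomes, ordered by median, with chromosome 20 in red. Chromosome 20 is second from the right at 0.35, and its quartiles of -0.03 and 0.86 overlap those of the other chromosomes.

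A single shRBBP4 region over several shNT regions was commoner than the reverse. Overlaps joined regions of both lists into 677 groups on chromosome 20. In 109 of them (16.1%) 1 shRBBP4 region stood over several shNT regions, against 11.8% of groups on the other chromosomes. In 42 (6.20%) 1 shNT region stood over several of shRBBP4, against 8.13%. The first kind was 2.60 times as frequent as the second here and 1.45 times on the other chromosomes. On chromosomes 10, 14 and 7 it was 2.81, 2.47 and 0.833 times as frequent. In the other 34 groups several regions of each library were linked. The widest shRBBP4 region of the chromosome was in one of these. It spanned 2694 bp from 17949701 to 17952394 and overlapped 5 shNT regions that covered 88.6% of it, and the last of these also overlapped a neighbouring shRBBP4 region.

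The 5 widest regions of each library all overlapped regions of the other. Regions wider than 1 kb numbered 37 in shNT (3.65%) and 101 in shRBBP4 (5.81%), against 2.08% and 2.47% on the other chromosomes. By this share chromosome 20 ranked 2nd of 23 chromosomes in shNT, after chromosome 5 (4.26%). In shRBBP4 it ranked 1st, before chromosome 5 (4.94%). The shNT region of 1783 bp from 2449607 to 2451389 had a partner of 2220 bp (2449135 to 2451354), at ranks 32 and 79. That of 1817 bp from 49126970 to 49128786, the widest in shNT, was overlapped by 2 shRBBP4 regions, one of them of 2174 bp (49127427 to 49129600). That of 1785 bp from 52208119 to 52209903 was also overlapped by 2, one of them of 1880 bp (52207179 to 52209058). The shNT region of 1643 bp from 2633307 to 2634949 had a single, narrower partner of 1586 bp. That of 1660 bp from 3777236 to 3778895 was overlapped by 2 shRBBP4 regions, which covered 83.1% of it, the better ranked of them 1038 bp wide. The fourth widest shRBBP4 region, 2041 bp from 45982922 to 45984962, stood over 4 shNT regions that covered 62.4% of it.

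Matched regions also stood higher in the shRBBP4 list than in the shNT list. Their median percentile was 59.5 in shNT and 81.1 in shRBBP4. The median difference within pairs was 10.0 points (quartiles -0.27 and 34.0), against 5.42 on the other chromosomes (quartiles -9.53 and 26.3). The shRBBP4 percentile was higher in 361 pairs (73.4%), against 61.4% of all pairs. A difference of at least 20 points upward was found in 189 pairs (38.4%), against 31.4% of all pairs, and downward in 46 (9.35%), against 15.7%. Chromosomes 14, 10 and 7 had median differences of 15.7, 10.3 and -0.89 points, and chromosome 20 ranked 3rd of 23 chromosomes. An upward difference of at least 20 points was found in 44.2%, 38.5% and 23.0% of the pairs on chromosomes 14, 10 and 7. Ranked among matched pairs only, the median difference was 5.46 points on chromosome 20 and -0.45 on the others. Ranks in lists of different length do not measure a change of the mark.

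The 5 pairs with the largest difference in each direction were as follows. The region from 9048841 to 9049078 stood at percentile 0.526 in shNT, and its partner from 9048444 to 9049004 at 97.1 in shRBBP4. The next were 31330803 to 31330925 (2.12 and 94.1), 18477125 to 18477324 (1.18 and 92.4), 34542718 to 34542840 (8.06 and 95.1) and 10651693 to 10651952 (14.7 and 98.5). All 5 were wider in shRBBP4, by log2 ratios between 1.24 and 2.58. In the opposite direction, 62612502 to 62612648 stood at percentile 86.6 in shNT and 0.860 in shRBBP4, and 52357574 to 52357948 at 85.5 and 5.48. Then came 20692414 to 20692675 (85.7 and 24.7), 34636792 to 34636970 (57.0 and 1.47) and 2083369 to 2083551 (88.8 and 33.4). Of these 5, 4 were narrower in shRBBP4 and the third was slightly wider, at 262 and 282 bp.

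Regions of both libraries lying no more than 1 kb apart were joined, which gave 715 clusters on chromosome 20. Both libraries were present in 379 of them, shRBBP4 alone in 301 (42.1%), against 35.0% of all clusters of the genome, and shNT alone in 35 (4.90%), against 7.26%. On chromosomes 10, 14 and 7, shRBBP4 alone made up 45.8%, 45.1% and 20.1% of clusters, and shNT alone 3.55%, 3.21% and 13.7%. Of the 301 clusters with shRBBP4 alone on chromosome 20, 200 were single regions, against 4317 of 6036 on the other chromosomes. The 725 additional shRBBP4 regions came from both kinds of place. Clusters with shRBBP4 alone held 466 regions, clusters of both libraries held 297 more of shRBBP4 than of shNT, and clusters with shNT alone held 38 shNT regions.

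Within clusters of both libraries, shRBBP4 regions covered more bases than shNT regions in 340 of 379 (89.7%), against 71.3% on the other chromosomes. The covered length was at least 1.5 times larger in 219 (57.8%), against 41.5% of all such clusters, and at least 1.5 times smaller in 8 (2.11%), against 9.15%. The median log2 ratio was 0.72 (quartiles 0.26 and 1.31), against 0.40 elsewhere, 0.80 on chromosome 10, 0.90 on chromosome 14 and -0.07 on chromosome 7. Such a cluster held a mean of 2.58 shNT and 3.36 shRBBP4 regions. Clusters that spanned at least 4 kb made up 5.03% on chromosome 20 and 2.49% elsewhere, with 28 of 36 on the q arm, which held 484 of the 715 clusters.

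The longest clusters differed in how the libraries filled them. The longest, 11.6 kb from 45978802 to 45990377, had 19 regions over 6.16 kb in shNT and 14 over 9.12 kb in shRBBP4, so fewer regions covered more of it. The second, from 17944491 to 17954674, held 9 regions covering 4.58 kb and 11 covering 7.22 kb. The third, from 3786163 to 3793174, held 9 and 12 regions covering 2.40 and 3.04 kb. The fourth, from 30190425 to 30197073, held 5 regions in each library, covering 2.92 and 3.00 kb, and not all of them at the same places. In shRBBP4 the 2 leftmost overlapped no shNT region, and in shNT the 2 rightmost overlapped none of shRBBP4. The fifth, from 43970250 to 43976633, had 3 weak shNT regions over 0.547 kb, none above percentile 37.7, and 9 in shRBBP4 over 4.30 kb, with the best at 81.0.

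**Figure D4:**
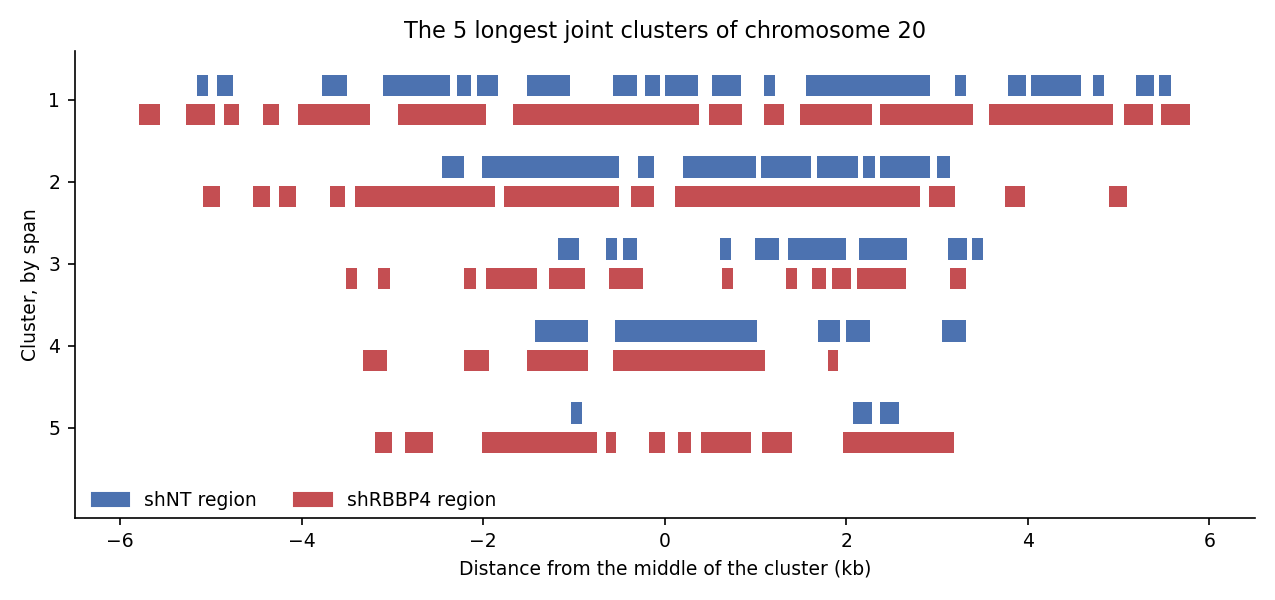
Regions of shNT (blue) and shRBBP4 (red) in the 5 longest joint clusters of chromosome 20, drawn to scale as distance in kb from the middle of each cluster. Cluster 1 has 19 blue and 14 red regions, with red covering more of it in total, cluster 4 has 5 of each, and cluster 5 has 3 blue and 9 red.

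Clusters of several regions in 1 library alone were found mainly in shRBBP4, with 101 against 3 in shNT among 715 clusters. The other chromosomes had 1719 and 172 among 17391, so shRBBP4 had more of them there too. Chromosome 10 had 109 and 1 among 760, chromosome 14 had 74 and 2 among 468, and chromosome 7 had 54 and 21 among 896. On chromosome 20, the shRBBP4 clusters of this kind were as follows. The largest held 6 regions covering 0.871 kb, from 30282503 to 30285019, the best at percentile 83.8. It was followed by 5 regions from 57116263 to 57118552, the best at 79.3, and 5 from 52368553 to 52370563, the best at 83.8. The 3 of shNT held 2 regions each and lay at 42477344 to 42478565, at 39769882 to 39770763 and at 24451184 to 24452064. Their best regions stood at percentiles 8.46, 29.4 and 29.4.

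Along the chromosome, region number followed the same profile in both libraries. Counts in 63 windows of 1 Mb had a Spearman correlation of 0.93 across windows, which share each library and its depth and are not replicates. The window from 52 to 53 Mb had most regions in shRBBP4 (102, with 55 in shNT) and that from 3 to 4 Mb most in shNT (57, with 76 in shRBBP4). shRBBP4 had more regions in 53 windows and fewer in 1, from 54 to 55 Mb, with 6 in shNT and 4 in shRBBP4. No region was called in 8 windows in either library, among them those from 26 to 30 Mb in the gap around the split. The 63 windows include these empty ones. The ratio of the 13 bins of 5 Mb, which the choice of the chromosome used, ran from 1.47 at 20 to 25 Mb to 2.35 at 10 to 15 Mb.

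The largest ratios were found in windows with few shNT regions. The window from 9 to 10 Mb had 1 region in shNT and 14 in shRBBP4, that from 59 to 60 Mb 1 and 11, that from 6 to 7 Mb 1 and 10, and that from 50 to 51 Mb 7 and 28. The window from 10 to 11 Mb had 17 and 46 regions, of which 3 and 10 were in the strongest decile of their list. Dense windows could lie near equality. That from 2 to 3 Mb had 29 and 30 regions, and that from 45 to 46 Mb 39 and 41. In the latter, which holds the longest cluster, covered length still went from 11.6 to 21.3 kb.

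Matched regions were wider in shRBBP4 along both arms. The median log2 width ratio of matched pairs was above 0 in all 13 bins, from 0.13 to 0.53, and above the 0.15 of the other chromosomes in 11. The lowest values were at 25 to 30 Mb (12 pairs) and at 0 to 5 Mb (74 pairs, 0.14). The percentile difference was positive in 12 bins. The exception was 5 to 10 Mb, with -3.23 over 13 pairs, where the width ratio was highest. The shared share of shNT regions lay between 78.4% and 92.5% in the bins, above that of the other chromosomes in all 13, and that of shRBBP4 regions between 33.3% and 49.4%.

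**Figure D5:**
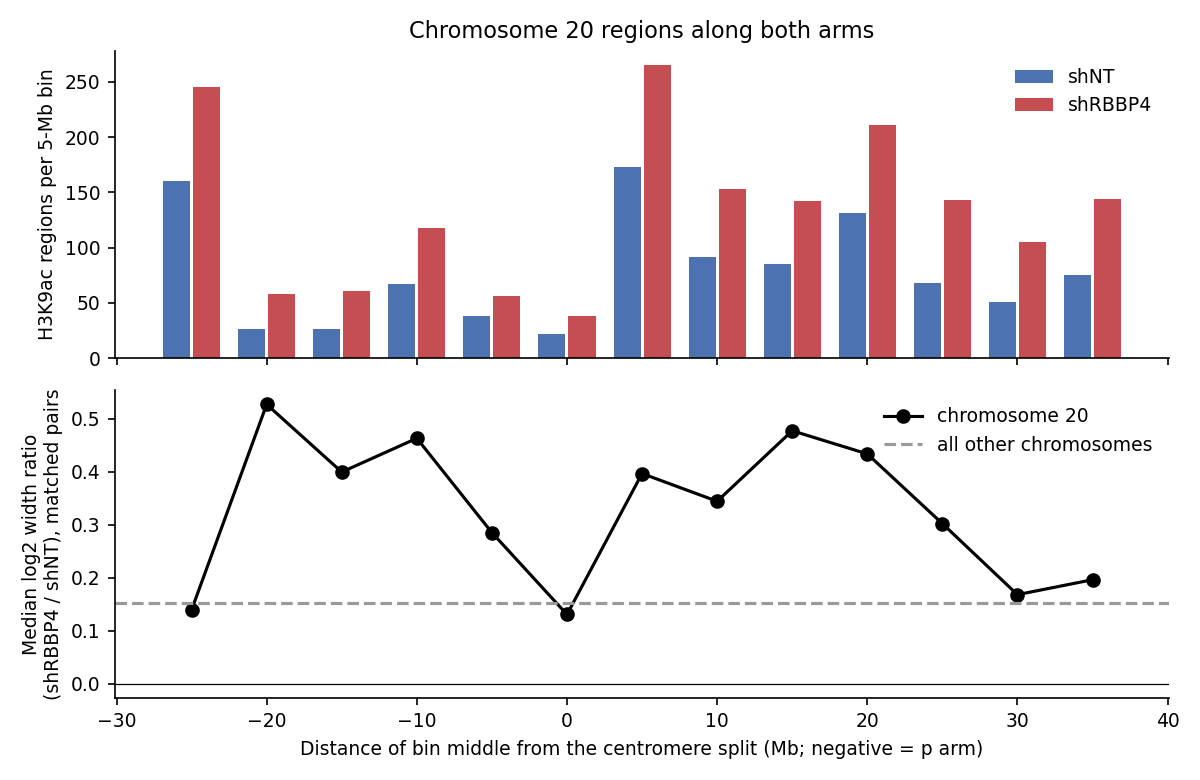
Regions per 5-Mb bin in shNT (blue) and shRBBP4 (red) by distance of the bin's middle from the centromere split (top), and the median log2 width ratio of matched pairs in the same bins, with the median of all other chromosomes as a dashed line (bottom). shRBBP4 has more regions in each of the 13 bins, and the width ratio runs from 0.13 to 0.53.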

How the data were processed

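H3K9ac ChIP-seq regions of 2 T98G libraries were used, 1 per shRNA, and the 2 input libraries were left out. Each library has a region list of its own. Per the file headers, the lists are named after macs2 and PE. The builds hg19 and GRCh37 and the tools BWA, SICER, Picard and bcl2fastq 2.15.0 are listed with no role, per the submitters' processing notes, so headers and notes differ in the caller. A threshold or a use of the input is not given in the sources used here. The deposited score per region is the authors' own value on a scale that is not given, and it was used only to rank regions within their list. Depth is unknown.

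Percentiles are mid-ranks in the whole list, so tied regions share a value. Positions are on hg19, with starts counted from 1. Regions count as shared at an overlap of at least 1 bp. Pairs consist of 1 region of each list that overlap each other only. Clusters join gaps of up to 1 kb. Intervals are exact, Clopper-Pearson for shares, conditional for ratios of counts and from order statistics for medians. All other values are compared without a test. The 5 top, widest, unmatched and most different regions or pairs, the 5 longest clusters, the 3 largest clusters of 1 library and the 2 regions on either side of the split are named. Chromosomes 7, 10 and 14 served for comparison. The members, lists and measures were chosen with earlier results of these data known. Gene lists, the sequence of regions and their annotation were planned and not run, since no genome or annotation of hg19 was used. The functions were tested on simulated lists. The alternatives were other overlap rules, score limits, list lengths, units and gaps. Software was Python 3.11.15 with scipy 1.17.1, pandas 2.3.3, numpy 2.4.6 and, for plots, matplotlib 3.10.9.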

Additional observations from a re-analysis of the deposited data

How the results depend on the processing

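No paired analysis was possible because there is only 1 library per shRNA, and no replicate could be left out for the same reason. Chromosome 20 kept its side of the value it was compared with in 38 of 39 alternatives. The exception was the share of clusters with both libraries, 53.0% against 57.9% elsewhere, which was 55.8% against 54.3% in the higher-scoring 50% of each list. The cause was not tested. The alternative without the narrowest regions was chosen after seeing the data.

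The region ratio of 1.71 was 1.25 in lists of equal length (0.990 elsewhere), 1.58 in clusters and 1.86 by covered length. The share of chromosome 20 in the top of the shNT list was 11% in the top 100. In shRBBP4 it was 7.06% in the top 5000 and 9.90% in the top 1000 by width. The shared shares of shNT and shRBBP4 regions became 79.5% and 40.4% for an overlap of 50% of the shorter region, and 43.4% and 25.3% for a reciprocal one. Counterparts within 1 kb gave 96.1% and 68.8%. Equal list length gave 79.5% and 54.2%, and the higher-scoring 50% gave 95.3% and 65.1%. The median log2 width ratio was 0.70 for the best partner of each shNT region, 0.19 with reciprocal overlap, which removes pairs of unequal width by construction, and 0.72 by covered length of clusters. The percentile difference was 14.5, 6.01, 4.87 and 5.46 points for the best partner, reciprocal overlap, lists of equal length and ranks among pairs only. Clusters with both libraries made up 46.5% at gaps of up to 500 bp and 59.3% at 3 kb, and those with shRBBP4 alone 47.9% and 37.1%. Unknown depth limits each comparison of region number, width and rank.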
